A study of Mus musculus with 9 samples.

Results

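The genes described here are 34 mouse genes of sterol and fatty acid synthesis, chosen by name for their known roles, with earlier results of these arrays known. They cover the mevalonate pathway up to squalene, the steps from squalene to cholesterol, the control of the SREBP transcription factors, sterol transport and efflux, and the synthesis of long-chain fatty acids. Of the 34 genes, 29 reached the level minimum of log2 4 on at least 3 of 9 arrays. They stand among 9431 such genes, out of 18193 genes on the array. Abca1 and Abcg1, exporters of cellular cholesterol, lay below the minimum. For Acat2, Soat1 and Nr1h2 no probe set was annotated to that gene alone, and they were not analysed here.

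Affymetrix arrays gave the transcript levels of m-ICcl2 cells, 1 mouse small intestinal epithelial line of C57BL/6 background, made from fetal tissue and carrying SV40 large T antigen as a transgene in all conditions. Tolerant cells had received 100 ng/mL of LPS (lipopolysaccharide, an outer membrane component of Gram-negative bacteria) for 6 h and then medium without LPS for 90 h, so that they were taken 96 h after LPS was added. The 6 h LPS cells were taken at the end of the same LPS exposure, and unstimulated cells received no LPS. Each condition had 3 arrays, labelled as biological replicates 1, 2 and 3. The labels give no culture time for unstimulated cells, so time in culture and earlier LPS cannot be told apart in tolerant cells.

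Cholesterol is built from acetyl-CoA through mevalonate, the isoprenoid diphosphates, squalene and lanosterol. When membrane sterol is low, SCAP escorts SREBP precursors from the endoplasmic reticulum to the Golgi, where proteases release the active factors, and INSIG proteins hold SCAP back when sterol is plentiful. SREBP-2 is known chiefly for activating cholesterol genes and SREBP-1c for activating fatty acid genes. In the small intestine, epithelial cells both take up sterol from the gut and synthesise it.

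Levels are given as log2 intensity, and a difference of 1 on this scale is a doubling of intensity. The tests were limma's moderated tests with Benjamini-Hochberg adjustment over all 9431 genes, at an adjusted p of 0.05. Each difference was also fitted with the replicate number as a block, since replicate 1 stood apart from replicates 2 and 3 in every condition, on the second principal component (30.9% of the variance). On the 3 arrays numbered 1, the log2 difference between 3' and 5' actin control probe sets was 0.40 to 0.72, against 1.02 to 1.38 elsewhere, and the 18S ribosomal RNA control lay there at log2 7.27 to 10.24, against 3.38 to 5.76. The array medians over the tested genes lay between log2 7.62 and 7.84. The epithelial genes Krt8, Krt18, Vil1 and Epcam were measured, with Epcam above log2 4 only in tolerant cells, at log2 5.31, 6.07 and 5.53, against 2.94 to 3.21 in 6 h LPS cells and 2.92 to 3.24 in unstimulated cells. Cdh1, Krt19, Cdx2, Cldn3 and Cldn7 lay below the minimum, as did all 8 leukocyte, 7 fibroblast and 5 endothelial markers. In such bulk RNA, fewer cells of a type and less RNA per cell cannot be told apart.

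Promoter windows are shown for 6 genes with 1 window in the RefSeq table (GRCm38.p6): Hmgcs1 and Idi1, which were highest after 6 h of LPS, and Mvk, Nsdhl, Ebp and Sc5d, sterol genes that differed in tolerant cells. Windows run from 250 bases before the transcript start to 50 after it, on the gene's own strand. They were searched on both strands for TCACNCCAC, a form of the sterol response element bound by SREBPs, and for CCAAT, the box bound by NF-Y. Capitals mark these matches, and ATTGG is CCAAT on the opposite strand. The windows are Hmgcs1 at chr13:119690101-119690400 on the plus strand, Idi1 at chr13:8885356-8885655 on the plus strand, Mvk at chr5:114444019-114444318 on the plus strand, Nsdhl at chrX:72918271-72918570 on the plus strand, Ebp at chrX:8193463-8193762 on the minus strand, and Sc5d at chr9:42264251-42264550 on the minus strand.
Hmgcs1: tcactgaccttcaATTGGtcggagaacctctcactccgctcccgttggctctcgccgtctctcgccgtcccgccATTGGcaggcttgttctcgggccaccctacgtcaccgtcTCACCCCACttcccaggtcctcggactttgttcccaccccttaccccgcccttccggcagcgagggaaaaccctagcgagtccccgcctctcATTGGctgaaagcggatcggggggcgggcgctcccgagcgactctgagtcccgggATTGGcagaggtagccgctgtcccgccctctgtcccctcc
Idi1: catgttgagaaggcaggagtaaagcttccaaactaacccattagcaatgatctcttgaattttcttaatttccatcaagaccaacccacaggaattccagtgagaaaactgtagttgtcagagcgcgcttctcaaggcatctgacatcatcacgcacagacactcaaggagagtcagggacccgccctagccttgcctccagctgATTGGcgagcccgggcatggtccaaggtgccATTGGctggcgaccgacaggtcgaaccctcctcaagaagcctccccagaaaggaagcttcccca
Mvk: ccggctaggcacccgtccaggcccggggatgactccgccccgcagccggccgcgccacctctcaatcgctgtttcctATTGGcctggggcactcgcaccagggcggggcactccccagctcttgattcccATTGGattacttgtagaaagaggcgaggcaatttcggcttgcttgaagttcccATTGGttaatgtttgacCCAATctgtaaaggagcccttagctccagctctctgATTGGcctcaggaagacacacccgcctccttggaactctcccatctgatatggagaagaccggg
Nsdhl: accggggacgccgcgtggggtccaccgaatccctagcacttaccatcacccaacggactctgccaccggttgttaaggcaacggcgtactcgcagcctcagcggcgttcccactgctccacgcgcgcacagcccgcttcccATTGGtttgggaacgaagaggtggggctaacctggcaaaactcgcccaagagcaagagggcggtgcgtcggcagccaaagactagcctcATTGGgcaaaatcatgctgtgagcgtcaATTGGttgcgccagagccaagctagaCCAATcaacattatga
Ebp: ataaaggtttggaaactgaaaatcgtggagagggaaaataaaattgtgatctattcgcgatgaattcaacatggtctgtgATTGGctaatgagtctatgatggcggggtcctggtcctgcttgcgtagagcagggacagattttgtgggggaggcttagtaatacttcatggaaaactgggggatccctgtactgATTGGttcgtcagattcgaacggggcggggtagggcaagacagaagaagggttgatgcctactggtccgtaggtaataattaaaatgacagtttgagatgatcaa
Sc5d: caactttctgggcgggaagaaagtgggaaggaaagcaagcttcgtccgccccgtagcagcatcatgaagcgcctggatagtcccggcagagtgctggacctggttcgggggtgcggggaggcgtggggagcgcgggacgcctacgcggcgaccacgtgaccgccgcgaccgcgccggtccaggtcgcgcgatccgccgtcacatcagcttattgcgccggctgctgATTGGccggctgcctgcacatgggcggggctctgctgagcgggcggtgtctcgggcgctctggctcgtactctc

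Of the 34 genes, 27 had at least 1 window in the table, 35 windows in all. Fdps, Fdft1, Sqle, Stard4, Abcg1, Scd1 and Scd2 had none. The sterol response element as spelled was found in 1 of the 35 windows, in Hmgcs1, starting at base -137 from the transcript start, and in 1.24% of the 32851 windows of all genes. A CCAAT box was found in 22 of the 35 windows, or 62.9%, against 37.4% of all windows. Mvk had 5 boxes, Hmgcs1 and Nsdhl had 4 each, Idi1 and Ebp had 2 each, and Sc5d had 1. The E-box CACGTG was found in 7 of the 35 windows, or 20.0%, against 7.15% of all windows. Overlapping windows of Scap hold the same E-box, so these are 6 of 27 genes. Among the printed windows it was found only in that of Sc5d, where it is left in lower case. No motif matches overlapped in the printed windows; in Fasn, 2 CCAAT boxes on opposite strands overlapped. Such matches are letters found in a window, not measured binding sites.

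**Figure D1:**
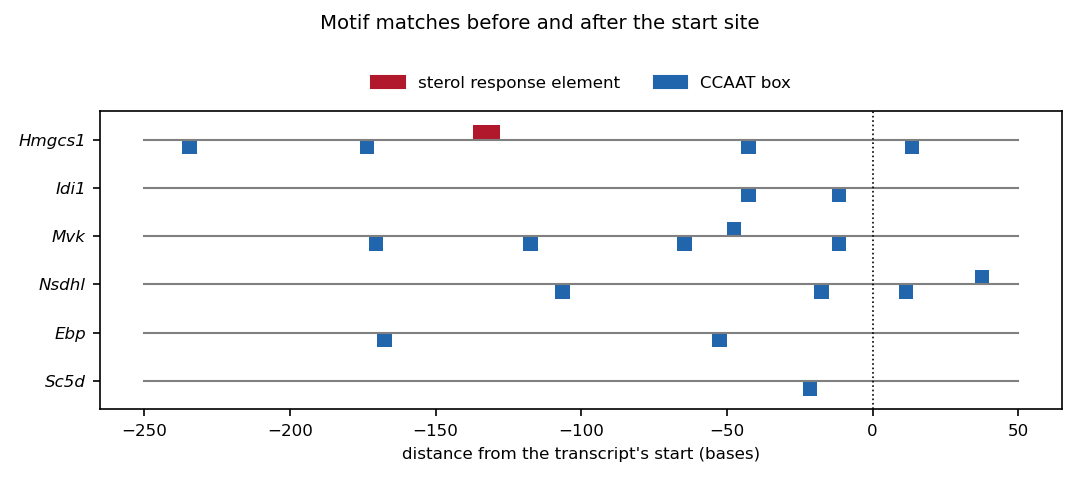
Positions of motif matches in the promoter windows of 6 genes, in bases from the transcript start (dotted line). Red marks the sterol response element and blue the CCAAT box, drawn above the line for the gene's own strand and below it for the opposite strand. The 1 sterol response element is in Hmgcs1, and Mvk holds 5 CCAAT boxes.

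In tolerant against unstimulated cells 7 of the 29 measured genes fell, 2 rose and 20 did not pass the test. Mvk, Pmvk, Fdps, Nsdhl, Ebp, Scap and Acly fell, by 0.47 to 1.47 on the log2 scale, and Sc5d and Insig2 rose. The 7 genes that fell are 24.1% of the 29 measured genes, where 12.2% of all tested genes fell, and the 2 that rose are 6.90%, where 14.0% of all tested genes rose. The median log2 difference was -0.39 over the 29 genes and -0.07 over all tested genes, and 21 of the 29 differences were negative, as were 54.7% of those of all tested genes. With the replicate block, 12 genes fell and 2 rose, where 25.9% of all tested genes fell and 22.7% rose. The block added Mvd, Fdft1, Lss, Hsd17b7 and Dhcr7. The count of 7 rests on few arrays: leaving out tolerant replicate 2 gave 3, leaving out tolerant replicate 3 gave 2, and leaving out unstimulated replicates 1, 2 and 3 gave 4, 2 and 4. The count of 2 became 1 when tolerant replicate 2 or tolerant replicate 3 was left out.

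**Figure D2:**
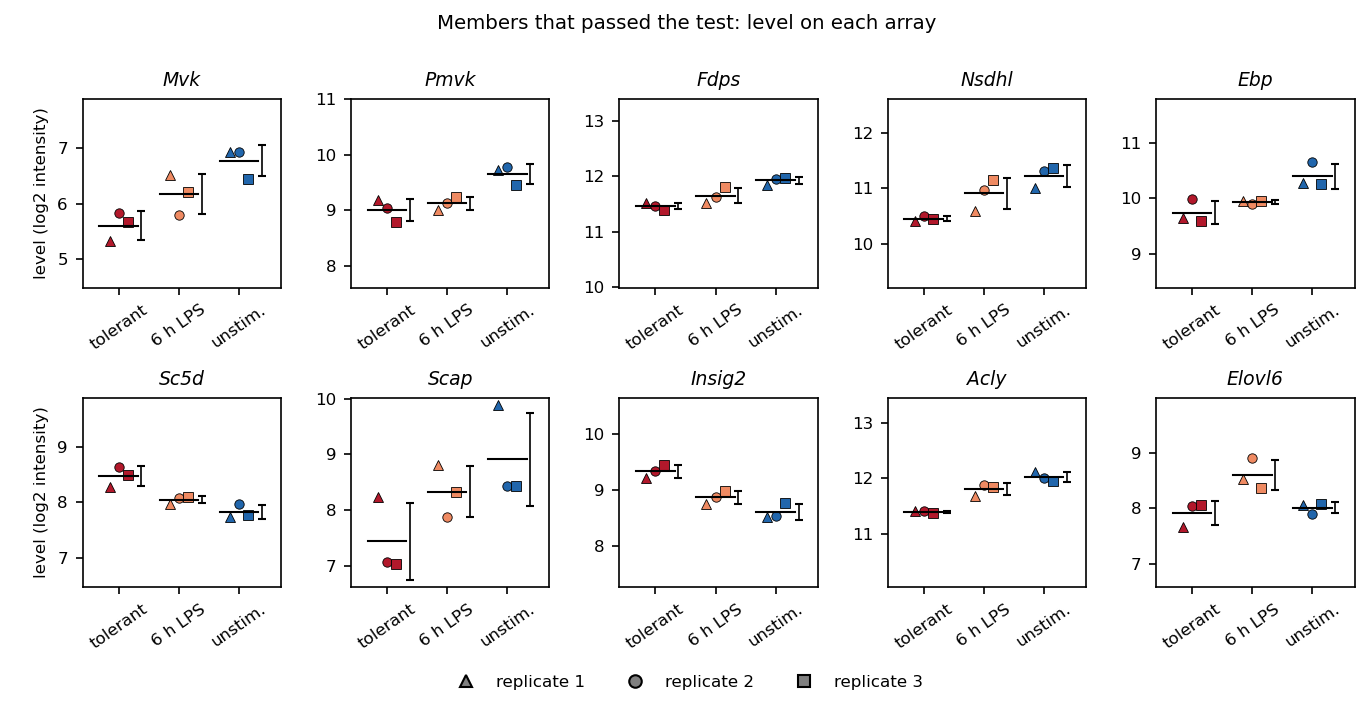
Level (log2 intensity) on each array of the 10 genes that passed the test in at least 1 comparison, in tolerant, 6 h LPS and unstimulated cells. Symbols give the replicate number, horizontal lines the mean and bars the SD (n = 3), and all panels span the same range of log2 units. Mvk, Nsdhl and Acly step down and Insig2 steps up towards the tolerant arrays, and in Scap replicate 1 lies above the others in each condition.

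Of the 7 measured mevalonate pathway genes 3 fell in tolerant against unstimulated cells, where 12.2% of all tested genes fell. These 3 were both kinases and the synthase of farnesyl diphosphate. Mvk encodes mevalonate kinase, which adds the first phosphate to mevalonate. Its levels were log2 5.33, 5.83 and 5.67 in tolerant cells, 6.51, 5.80 and 6.21 in 6 h LPS cells, and 6.94, 6.94 and 6.45 in unstimulated cells. All tolerant arrays lay below all unstimulated arrays, while the 6 h LPS arrays overlapped both. Mvk was 2.25-fold lower in tolerant than in unstimulated cells (log2 difference -1.17 ± 0.24 SE, limma adjusted p = 0.00788). A second, dimmer probe set of Mvk differed by -2.04. The call for Mvk in tolerant against unstimulated cells held in all 20 alternative settings. In tolerant against 6 h LPS cells Mvk differed by -0.57 (limma adjusted p = 0.163) and its second probe set by -1.39. Mvk passed there with the mean of its probe sets and with the second probe set. The latter alternative was chosen after seeing the data.

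Pmvk, phosphomevalonate kinase of the next step, had levels of log2 9.18, 9.03 and 8.79 in tolerant cells, 9.01, 9.13 and 9.25 in 6 h LPS cells, and 9.73, 9.78 and 9.45 in unstimulated cells. The unstimulated arrays were the 3 highest, and the other conditions overlapped each other. Pmvk differed by -0.65 ± 0.17 on the log2 scale in tolerant against unstimulated cells (limma adjusted p = 0.0221). This call was lost, with adjusted p of 0.0622 to 0.0922, when tolerant replicate 2 or 3 or unstimulated replicate 1 or 2 was left out.

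Fdps, the synthase that joins isoprenoid units into farnesyl diphosphate, had levels of log2 11.51, 11.46 and 11.40 in tolerant cells, 11.53, 11.62 and 11.80 in 6 h LPS cells, and 11.85, 11.95 and 11.97 in unstimulated cells. The conditions did not overlap, with the 6 h LPS arrays between the others. The log2 difference was -0.47 ± 0.14 in tolerant against unstimulated cells (limma adjusted p = 0.0402), the smallest of the called differences. It missed the threshold, at adjusted p of 0.0568 to 0.134, without any 1 of the tolerant or unstimulated arrays, without 6 h LPS replicate 2 and with quantile normalization.

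With the probe sets used, Mvd and Fdft1 did not pass over all arrays without the block. They passed with it and over replicates 2 and 3 only, and in both probe sets replicate 1 was far from replicates 2 and 3. Mvd, which decarboxylates mevalonate diphosphate, had levels of log2 8.13, 6.99 and 6.67 in tolerant cells, 7.63, 6.87 and 7.18 in 6 h LPS cells, and 8.55, 7.51 and 7.36 in unstimulated cells. Replicate 1 was the highest in each condition and the conditions overlapped. Within same-numbered arrays the log2 differences of tolerant from unstimulated cells were -0.42, -0.52 and -0.69, with an adjusted p of 0.395 without the block and 0.042 with it (0.0391 to 0.821 over 20 alternatives).

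Fdft1 encodes squalene synthase, the first enzyme committed to sterols. Its levels were log2 11.42, 12.30 and 12.33 in tolerant cells, 11.49, 12.64 and 12.75 in 6 h LPS cells, and 12.04, 12.75 and 12.71 in unstimulated cells, with replicate 1 the lowest in each condition and the conditions overlapping. The same-numbered differences of tolerant from unstimulated cells were -0.62, -0.44 and -0.39 on the log2 scale. The limma adjusted p was 0.401 without the block and 0.0228 with it (0.0228 to 0.764 over the alternatives). A second, dimmer probe set of Fdft1 differed by -0.53, with replicate 1 offset by 0.17. Fdft1 passed without the block when that probe set was used, in an alternative chosen after seeing the data.

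Hmgcs1, the synthase of HMG-CoA, and Idi1, the isomerase of isopentenyl diphosphate, did not pass in tolerant against unstimulated cells, at log2 differences of 0.24 ± 0.17 and 0.53 ± 0.22. Idi1 passed there without 6 h LPS replicate 3 (adjusted p = 0.046) and in separate fits. Their levels are given with the 6 h comparison.

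From squalene to cholesterol, 2 of 10 measured genes fell and 1 rose in tolerant against unstimulated cells. Of all tested genes 12.2% fell and 14.0% rose there, so these counts are near those shares. Nsdhl encodes a dehydrogenase that takes part in removing the methyl groups of lanosterol. Its levels were log2 10.41, 10.51 and 10.45 in tolerant cells, 10.59, 10.98 and 11.15 in 6 h LPS cells, and 11.00, 11.30 and 11.37 in unstimulated cells. The tolerant arrays were the 3 lowest, while 6 h LPS and unstimulated arrays overlapped. Nsdhl was 1.70-fold lower in tolerant than in unstimulated cells (log2 difference -0.77 ± 0.19 SE, limma adjusted p = 0.0162). The adjusted p was 0.0525 to 0.0646 when tolerant replicate 2 or 3 or unstimulated replicate 2 or 3 was left out.

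Ebp, the sterol isomerase that moves the ring double bond, had levels of log2 9.65, 9.99 and 9.60 in tolerant cells, 9.95, 9.89 and 9.95 in 6 h LPS cells, and 10.27, 10.65 and 10.26 in unstimulated cells. The unstimulated arrays were the 3 highest, and tolerant and 6 h LPS arrays overlapped. The log2 difference was -0.65 ± 0.18 in tolerant against unstimulated cells (limma adjusted p = 0.0248), and -0.62, -0.67 and -0.66 within same-numbered arrays. It missed the threshold, at adjusted p of 0.0669 to 0.0995, without tolerant replicate 1 or 3 or unstimulated replicate 2.

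Sc5d, which introduces a double bond into lathosterol late in the pathway, moved the other way. Its levels were log2 8.28, 8.64 and 8.50 in tolerant cells, 7.98, 8.07 and 8.10 in 6 h LPS cells, and 7.74, 7.98 and 7.78 in unstimulated cells. The tolerant arrays were the 3 highest. Sc5d was 1.56-fold higher in tolerant than in unstimulated cells (log2 difference 0.64 ± 0.16 SE, limma adjusted p = 0.0162), and this call was lost without tolerant replicate 2 (adjusted p = 0.0774), without tolerant replicate 3 (0.0618) and with quantile normalization (0.0528). The gene's probe sets disagreed: a dimmer one differed by 0.30 in tolerant and by 0.96 in 6 h LPS cells against unstimulated cells, where the brighter one differed by 0.22 at 6 h.

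With the probe sets used, Lss, Hsd17b7 and Dhcr7 did not pass in tolerant against unstimulated cells over all arrays without the block. They passed with it and over replicates 2 and 3 only. Lss also passed without the block with the mean of its probe sets. Lss, lanosterol synthase, had levels of log2 8.36, 9.06 and 9.14 in tolerant cells, 8.74, 9.98 and 9.91 in 6 h LPS cells, and 8.90, 9.58 and 9.57 in unstimulated cells. Replicate 1 was the lowest in each condition and the conditions overlapped. The same-numbered log2 differences of tolerant from unstimulated cells were -0.55, -0.52 and -0.43, with a limma adjusted p of 0.366 without the block and 0.0246 with it (0.0122 to 0.68 over the alternatives). A second probe set of Lss, with no such offset of replicate 1, differed by -1.28.

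Hsd17b7, a sterol ketoreductase, had levels of log2 7.69, 8.93 and 8.89 in tolerant cells, 8.26, 9.66 and 9.85 in 6 h LPS cells, and 8.02, 9.39 and 9.26 in unstimulated cells. Replicate 1 lay at least 1 log2 unit below replicates 2 and 3 in each condition, so that all conditions overlapped. The same-numbered log2 differences of tolerant from unstimulated cells were -0.33, -0.46 and -0.37, with a limma adjusted p of 0.644 without the block and 0.0372 with it (0.0372 to 0.98 over the alternatives). Dimmer measured probe sets of Hsd17b7 differed by -0.78 and -0.29 there. At 6 h they differed by 0.25 and 0.95 from unstimulated cells, where the probe set used differed by 0.37.

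Dhcr7, the reductase of a last step to cholesterol, had levels of log2 7.55, 6.73 and 6.74 in tolerant cells, 7.73, 6.93 and 7.33 in 6 h LPS cells, and 8.64, 7.65 and 7.32 in unstimulated cells. Replicate 1 was the highest in each condition, and tolerant replicate 1 overlapped the unstimulated arrays. The same-numbered log2 differences of tolerant from unstimulated cells were -1.09, -0.92 and -0.58, with a limma adjusted p of 0.127 without the block and 0.00521 with it (0.00521 to 0.35 over the alternatives).

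Sqle, Cyp51, Tm7sf2 and Msmo1 passed in no comparison over all arrays with the level minimum, with or without the block. Without that filter on low values Sqle fell in tolerant against 6 h LPS cells (limma adjusted p = 0.0279). Sqle, squalene epoxidase, and Cyp51, the lanosterol demethylase, differed by at most 0.25 on the log2 scale in any comparison with the probe sets used. The dimmest probe set of Cyp51 differed by -0.37 in tolerant against 6 h LPS cells. Msmo1, a sterol methyl oxidase, differed by at most 0.28. Tm7sf2, a sterol reductase, had levels of log2 8.54, 8.46 and 8.27 in tolerant cells, 6.89, 8.42 and 8.54 in 6 h LPS cells, and 9.16, 9.01 and 8.75 in unstimulated cells. The unstimulated arrays were the 3 highest. In tolerant against unstimulated cells it differed by -0.55 ± 0.39 (limma adjusted p = 0.335), and it passed without 6 h LPS replicate 1 (0.0336), over replicates 2 and 3 only (0.0394) and in separate fits (0.047). It differed by -1.03 ± 0.39 in 6 h LPS against unstimulated cells (limma adjusted p = 0.167). That value rested on 6 h LPS replicate 1, the lowest array, and it was -0.40 over replicates 2 and 3 only.

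Of the 5 SREBP control genes 1 fell, 1 rose and 3 did not pass in tolerant against unstimulated cells. Of all tested genes 12.2% fell and 14.0% rose there. Scap encodes the escort of the SREBP precursors. Its levels were log2 8.24, 7.06 and 7.03 in tolerant cells, 8.80, 7.87 and 8.33 in 6 h LPS cells, and 9.88, 8.43 and 8.43 in unstimulated cells. All tolerant arrays lay below all unstimulated arrays, and replicate 1 was the highest in each condition. Scap was 2.78-fold lower in tolerant than in unstimulated cells (log2 difference -1.47 ± 0.47 SE, limma adjusted p = 0.0487). This call was lost, at adjusted p of 0.0526 to 0.156, without tolerant replicate 2 or 3, 6 h LPS replicate 2 or 3, any 1 unstimulated array, the filter on low values (0.153) or the pooled fit of 3 conditions (0.0715 in separate fits). Within same-numbered arrays the differences were -1.64, -1.37 and -1.41.

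Insig2, which retains SCAP in the endoplasmic reticulum, had levels of log2 9.22, 9.34 and 9.45 in tolerant cells, 8.75, 8.87 and 8.98 in 6 h LPS cells, and 8.51, 8.54 and 8.77 in unstimulated cells. The tolerant arrays were the 3 highest and overlapped neither of the other conditions. Insig2 was 1.66-fold higher in tolerant than in unstimulated cells (log2 difference 0.73 ± 0.15 SE, limma adjusted p = 0.00866), and its 3 probe sets differed by 0.73, 0.62 and 0.95. The call held in all 20 alternatives.

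Srebf1 and Srebf2, the genes of the factors themselves, and Insig1, the sterol-responsive relative of Insig2, passed in no comparison. Srebf2 had the largest offset of replicate 1 among the 29 genes, with levels of log2 10.12, 8.66 and 8.66 in tolerant cells, 10.33, 8.02 and 8.27 in 6 h LPS cells, and 10.01, 8.57 and 8.26 in unstimulated cells. The standard error of each Srebf2 difference was 0.70. The 2 probe sets of Srebf2 differed in sign, at 0.20 and -0.44 on the log2 scale in tolerant against unstimulated cells. Srebf1 differed by -0.40 ± 0.47 and Insig1 by -0.23 ± 0.32 in that comparison.

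Of the 6 fatty acid genes, 1 fell in tolerant against unstimulated cells, near the 12.2% of all tested genes that fell. Acly encodes ATP citrate lyase, which supplies cytosolic acetyl-CoA to both pathways. Its levels were log2 11.40, 11.42 and 11.38 in tolerant cells, 11.68, 11.88 and 11.85 in 6 h LPS cells, and 12.11, 12.01 and 11.95 in unstimulated cells. The 3 conditions did not overlap, with the 6 h LPS arrays in between. Acly was 1.54-fold lower in tolerant than in unstimulated cells (log2 difference -0.62 ± 0.14 SE, limma adjusted p = 0.0113). Its other measured probe sets differed by -0.74 and -0.62 but had replicate 1 offset upwards by 0.77 and 1.56, and the call was lost with the mean of the probe sets (adjusted p = 0.165) and with the probe set whose name carries no letter before its ending (0.127).

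Acaca, acetyl-CoA carboxylase, and Fasn, fatty acid synthase, differed by -0.47 ± 0.21 and -0.36 ± 0.30 on the log2 scale in tolerant against unstimulated cells and did not pass. The desaturase genes Scd1 and Scd2 differed by at most 0.20 in any comparison with the probe sets used. A dimmer probe set of Scd2 differed by 0.34 in 6 h LPS against unstimulated cells. Stard4, a cytosolic carrier of cholesterol and the 1 measured gene of sterol transport, differed by 0.37 ± 0.16 and did not pass, although its tolerant arrays did not overlap the unstimulated ones.

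**Figure D3:**
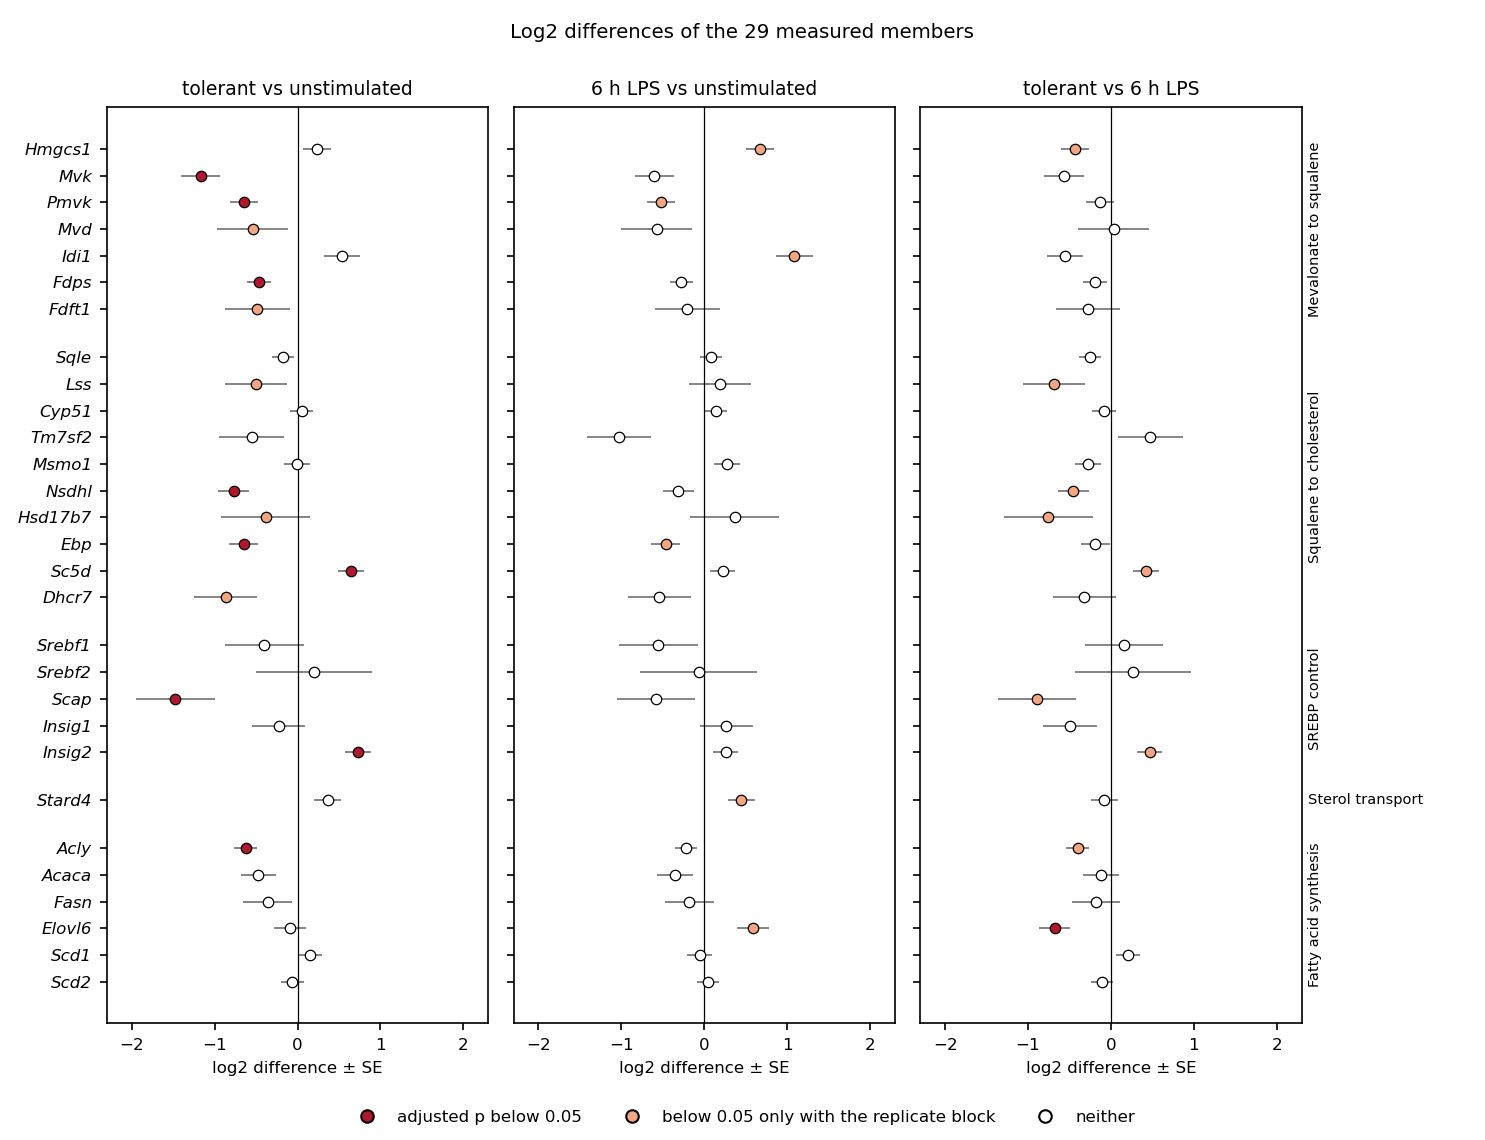
Log2 differences with SE (bars) of the 29 measured genes in tolerant against unstimulated cells, 6 h LPS against unstimulated cells, and tolerant against 6 h LPS cells, with genes grouped by role. Dark points passed at an adjusted p of 0.05, light points only with the replicate block, and open points in neither fit. In the left panel 21 of 29 points lie below 0, and in the middle panel no point is dark.

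After 6 h of LPS none of the 29 genes passed limma's test against unstimulated cells, where 0.0636% of all tested genes rose and 0% fell. At an unadjusted p of 0.05, 4 of the 29 were higher and 4 lower, as were 12.9% and 10.0% of all tested genes. The median log2 difference was -0.07 over the 29 genes and -0.11 over all tested genes. With the replicate block Hmgcs1, Idi1, Stard4 and Elovl6 rose and Pmvk and Ebp fell, and 11.6% of all tested genes rose and 12.5% fell. The 4 of 29 that rose are near the share of all genes, and the 2 of 29 that fell are below it. Leaving out 6 h LPS replicate 3 gave 2 genes that rose without the block, Hmgcs1 and Idi1, where 5.33% of all tested genes then rose.

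Hmgcs1 had levels of log2 12.76, 12.64 and 12.51 in tolerant cells, 13.28, 13.15 and 12.79 in 6 h LPS cells, and 12.45, 12.30 and 12.47 in unstimulated cells. The conditions did not overlap: all 6 h LPS arrays were the highest and all unstimulated arrays the lowest. In 6 h LPS against unstimulated cells Hmgcs1 differed by 0.67 ± 0.17 on the log2 scale, with a limma adjusted p of 0.115 without the block and 0.0319 with it (0.0319 to 0.378 over the alternatives). Its 5 probe sets differed by 0.52 to 0.79.

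Idi1 had levels of log2 10.00, 10.28 and 10.34 in tolerant cells, 10.92, 11.05 and 10.31 in 6 h LPS cells, and 9.58, 9.59 and 9.85 in unstimulated cells. The 6 h LPS arrays lay above all unstimulated arrays, and 6 h LPS replicate 3 lay among the tolerant arrays. Idi1 differed by 1.09 ± 0.22 in 6 h LPS against unstimulated cells, which is 2.12-fold, with a limma adjusted p of 0.115 without the block and 0.0319 with it (0.0203 to 0.378 over the alternatives). Its second probe set differed by 0.86.

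Stard4 had levels of log2 9.82, 9.96 and 9.98 in tolerant cells, 9.83, 10.29 and 9.88 in 6 h LPS cells, and 9.57, 9.56 and 9.54 in unstimulated cells. The unstimulated arrays were the 3 lowest, and the other conditions overlapped. The log2 difference of 6 h LPS from unstimulated cells was 0.45 ± 0.16 (limma adjusted p = 0.162 without the block, 0.0492 with it, 0.0492 to 0.456 over the alternatives).

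Pmvk and Ebp, described above, differed by -0.52 ± 0.17 and -0.46 ± 0.18 in 6 h LPS against unstimulated cells. Their limma adjusted p values were 0.135 and 0.166 without the block and 0.0425 and 0.046 with it, and 0.0425 to 0.38 and 0.046 to 0.409 over the alternatives. In both genes the 6 h LPS arrays lay below all unstimulated arrays.

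**Figure D4:**
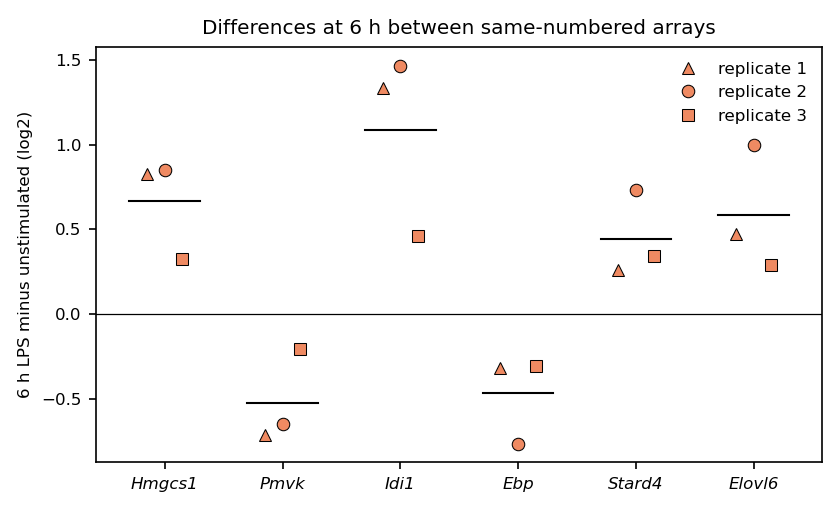
Log2 difference of 6 h LPS from unstimulated cells within same-numbered arrays (symbols give the replicate number) for the 6 genes that passed at 6 h with the replicate block and not without it over all arrays, with horizontal lines at the mean. All 3 differences have the same sign in each gene, and replicate 3 gave the smallest difference in Hmgcs1, Idi1, Pmvk, Ebp and Elovl6.

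Tolerant cells were also compared with 6 h LPS cells, on the same tolerant arrays as above. Elovl6, the elongase of saturated and monounsaturated fatty acids, fell, and no gene rose by limma's test, where 6.02% of all tested genes fell and 7.10% rose. At an unadjusted p of 0.05, 6 of the 29 genes were lower and 2 higher, as were 13.2% and 13.5% of all tested genes. The median log2 difference was -0.19 over the 29 genes and 0.01 over all tested genes, and 22 of the 29 differences were negative, as were 49.1% of those of all tested genes. With the block 7 genes fell and 2 rose, where 15.7% of all tested genes fell and 16.0% rose.

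Elovl6 had levels of log2 7.67, 8.04 and 8.05 in tolerant cells, 8.53, 8.90 and 8.37 in 6 h LPS cells, and 8.05, 7.90 and 8.08 in unstimulated cells. The 6 h LPS arrays were the 3 highest, and tolerant and unstimulated arrays overlapped. Elovl6 was 1.60-fold lower in tolerant than in 6 h LPS cells (log2 difference -0.68 ± 0.19 SE, limma adjusted p = 0.0464). This call was lost, at adjusted p of 0.0578 to 0.141, without any 1 array other than 6 h LPS replicate 3. It was also lost over replicates 2 and 3 only (0.0809), without the filter (0.0659), with quantile normalization (0.0541) and in separate fits (0.101). Without 6 h LPS replicate 3 Idi1 fell as well (-0.78, adjusted p = 0.0349). In 6 h LPS against unstimulated cells Elovl6 differed by 0.59 ± 0.19 (adjusted p = 0.132 without the block, 0.0433 with it, 0.0433 to 0.393 over the alternatives), and its dimmer probe sets by 0.78 and 0.20.

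The other genes that fell in tolerant against 6 h LPS cells with the block were Hmgcs1, Lss, Nsdhl, Hsd17b7, Scap and Acly, at log2 differences of -0.43, -0.69, -0.45, -0.76, -0.89 and -0.40. Their limma adjusted p values lay between 0.00347 and 0.0463 with the block, and between 0.0937 and 0.423 without it. Lss, Hsd17b7 and Mvk also fell there without the block with the mean of their probe sets. Acly also fell there without the filter on low values and with trend and robust eBayes. Sc5d and Insig2 rose with the block, at 0.42 and 0.47. Insig2 also rose without the block with the mean of its probe sets and without the filter on low values. The 3 probe sets of Insig2 differed there by 0.47, 0.71 and 0.75. For Sc5d the mean of its probe sets gave -0.12 in this comparison, so its direction depended on the probe set.

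The offset of replicate 1 touched about as many of these genes as of all genes. The level of replicate 1 minus the mean of replicates 2 and 3, taken over the conditions, was 0.5 or more in size in 34.5% of the 29 genes and in 35.3% of all tested genes. It was 0.5 or more above in 6 genes, which were Srebf2 (1.75), Scap (1.12), Srebf1 (1.09), Mvd (1.00), Dhcr7 (0.86) and Fasn (0.64). It was as far below in 4 genes, which were Hsd17b7 (-1.34), Fdft1 (-0.93), Lss (-0.87) and Insig1 (-0.69). Both measured probe sets of Srebf2 (1.75 and 1.30) and of Mvd (1.00 and 1.33) shared the offset. In contrast, it ran from -0.02 to 1.56 over the 3 measured probe sets of Acly and from -1.34 to 0.45 over those of Hsd17b7. Over the measured probe sets of Fdft1 it was -0.93 and 0.17, and over those of Lss -0.87 and 0.10. The part of RNA quality in this offset was not tested.

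**Figure D5:**
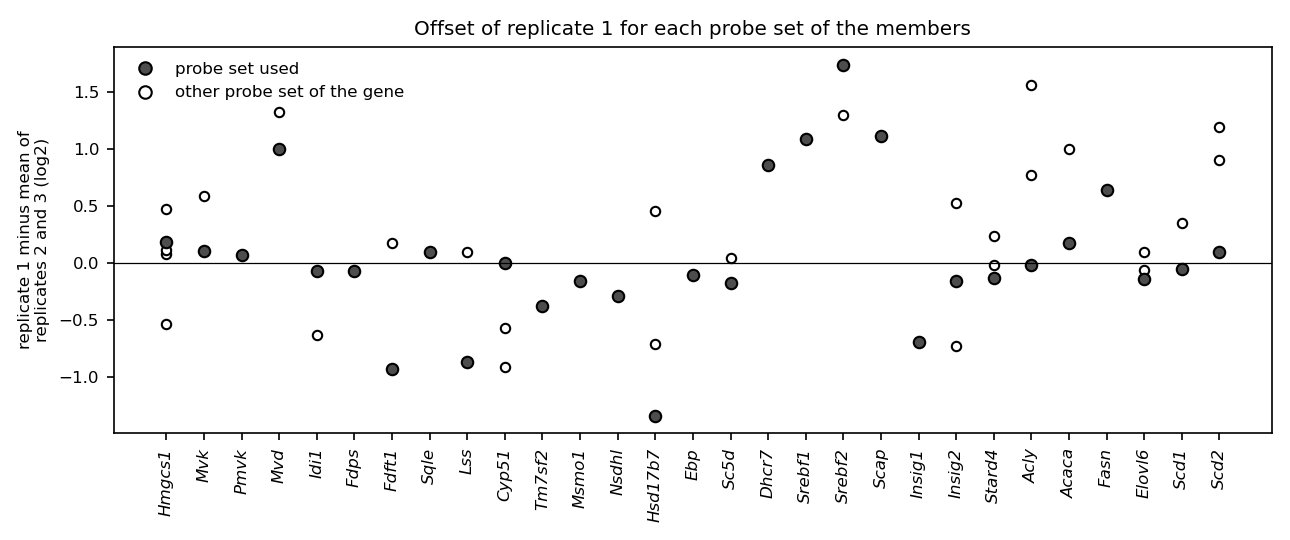
Level of replicate 1 minus the mean of replicates 2 and 3 (log2, averaged over conditions) for each measured probe set of the 29 genes, with the probe set used filled and other probe sets of the same gene open. Srebf2 lies highest among the filled points at 1.75 and Hsd17b7 lowest at -1.34, and probe sets of Hsd17b7, Acly and Scd2 lie far apart.

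Further genes of these pathways were taken from lists of 55 genes that hold none of the 34. Of these 38 were measured, 8 lay below the level minimum, and 9 without a probe set of their own were not analysed here. In tolerant against unstimulated cells 5 of the 38 rose and 5 fell, where 14.0% and 12.2% of all tested genes did, and 6 rose and 10 fell with the block (22.7% and 25.9% of all tested genes). The median log2 difference was -0.07, as over all tested genes. In 6 h LPS against unstimulated cells none passed limma's test, with 5 higher and 3 lower at an unadjusted p of 0.05, as were 12.9% and 10.0% of all tested genes. With the block 4 rose and 4 fell, where 11.6% and 12.5% of all tested genes did. In tolerant against 6 h LPS cells 2 rose and 2 fell (7.10% and 6.02% of all tested genes), and 3 rose and 7 fell with the block (16.0% and 15.7%). For these further genes, calls were not followed with single arrays left out or in the other alternative settings, apart from the block and replicates 2 and 3 only.

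The proteases that release SREBPs moved in opposite directions in tolerant cells. Mbtps2, the gene of the site-2 protease, had levels of log2 8.38, 8.88 and 8.78 in tolerant cells and 7.28, 7.21 and 7.76 in unstimulated cells. The log2 difference was 1.26 (limma adjusted p = 0.0226, and 0.054 over replicates 2 and 3 only). In 6 h LPS against unstimulated cells Mbtps2 differed by 0.80 (limma adjusted p = 0.192), and its 6 h LPS arrays overlapped both other conditions. It did not pass in tolerant against 6 h LPS cells (limma adjusted p = 0.431). Mbtps1, the gene of the site-1 protease, had levels of log2 8.08, 7.58 and 7.54 in tolerant cells and 9.12, 8.42 and 8.30 in unstimulated cells. The log2 difference was -0.88 (limma adjusted p = 0.0372, and 0.00505 over replicates 2 and 3 only). It was -0.29 in 6 h LPS against unstimulated cells (limma adjusted p = 0.539). Neither gene's tolerant arrays overlapped its unstimulated arrays.

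Dgat2, which makes triglyceride from diacylglycerol, had levels of log2 5.61, 6.11 and 5.97 in tolerant cells, 7.63, 7.51 and 7.83 in 6 h LPS cells, and 8.84, 8.04 and 8.04 in unstimulated cells. The 3 conditions did not overlap. Dgat2 differed by -2.41 in tolerant against unstimulated cells (limma adjusted p = 0.000371) and by -1.76 against 6 h LPS cells (adjusted p = 0.00238). Fads2, a desaturase of polyunsaturated fatty acids, fell by 0.99 in tolerant against unstimulated cells (limma adjusted p = 0.027). The acyl-CoA synthetase genes Acsl4 and Acsl3 rose there by 1.25 and 0.82 (limma adjusted p = 0.0149 and 0.0153). In 6 h LPS against unstimulated cells Acsl4 and Acsl3 differed by 1.07 and 0.73 and did not pass. Between tolerant and 6 h LPS cells they differed by 0.18 and 0.09 and did not pass. Dimmer probe sets of Acsl4 differed there by 1.12 and 0.63, and by 0.36 and 1.66 in 6 h LPS against unstimulated cells. The size of each Acsl4 step thus depended on the probe set.

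Beside the mevalonate pathway, Ggps1, which makes geranylgeranyl diphosphate from farnesyl diphosphate, rose by 1.02 on the log2 scale in tolerant against unstimulated cells (limma adjusted p = 0.00483), with levels of log2 7.41, 7.56 and 7.36 in tolerant cells and 6.65, 6.16 and 6.45 in unstimulated cells. Aacs, acetoacetyl-CoA synthetase, and Acat1, the mitochondrial acetoacetyl-CoA thiolase, fell by 0.82 and 0.65 (adjusted p = 0.0433 and 0.0199). Acat1 also fell in tolerant against 6 h LPS cells, by 0.67 (adjusted p = 0.0285). Mylip, a ubiquitin ligase that targets lipoprotein receptors, rose by 0.62 in tolerant against unstimulated cells (adjusted p = 0.0164) and by 0.68 against 6 h LPS cells (adjusted p = 0.0186). Scarb1, a receptor of high-density lipoprotein, had levels of log2 9.59, 8.61 and 8.97 in tolerant cells, 7.50, 7.61 and 8.16 in 6 h LPS cells, and 8.67, 8.29 and 8.34 in unstimulated cells, and rose by 1.30 in tolerant against 6 h LPS cells (adjusted p = 0.0162).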

How the data were processed

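RNA of 9 cultures was hybridised to Affymetrix mouse arrays. The authors deposited 1 linear-scale intensity per probe set and array. Per the submitters' processing notes these came from GCRMA, of unstated version, which removes a background modelled on probe sequence and then makes arrays comparable, leaving low values close to a floor.

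The members and lists were chosen with earlier results of these data known. Values were turned into log2 here without a pseudocount. Of 45101 probe sets, 34945 carried 1 gene symbol, 932 several and 9160 none; 64 were controls. Each gene took its single-gene probe set of highest mean over 9 arrays, and a gene was tested if at least 3 arrays reached log2 4. Per-array values are given for genes called in a comparison or with the block, other measured genes are given by their differences or ranges, and at most 4 called genes of each further list are named. Groups came from the treatment labels. limma 3.58.1 in R 4.3.3 fitted a mean per condition (lmFit, 6 residual degrees of freedom; eBayes without trend), with two-sided moderated tests and Benjamini-Hochberg adjustment within each of 3 comparisons, which share arrays. The steps were tested on simulated data.

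Deviations from the condition means, in arrays of 1 number but different conditions, had a correlation across genes of 0.157 to 0.844, above 0.1 in every pair, so the replicate number was also fitted as a block. In these same-numbered pairs the correlation was 0.737 to 0.844 for replicate 1 and 0.157 to 0.677 for replicates 2 and 3. Between replicates 2 and 3 of different conditions it was 0.214 to 0.731, and between replicate 1 and the others -0.743 to -0.375. The numbers thus set replicate 1 apart, but they did not pair the arrays of replicates 2 and 3. The labels do not say what a number shares. Motifs were searched in RefSeq promoter windows of GRCm38.p6. Alternatives covered the filter, probe sets, normalization, floor, eBayes settings, separate fits, the block and each array left out. Arrays have no read depth, so precision is limited by their number.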

Additional observations from a re-analysis of the deposited data

How the results depend on the processing

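Tolerant against unstimulated cells: with quantile normalization 1 gene rose instead of 2, and leaving out 1 array gave 1 to 3. The 7 that fell became 12 with the replicate block, 13 over replicates 2 and 3 only, and 2 to 8 with 1 array left out (3 and 2 without tolerant replicates 2 and 3; 4, 2 and 4 without unstimulated replicates 1, 2 and 3). 6 h LPS against unstimulated cells: 4 rose and 2 fell with the replicate block instead of 0 and 0, and leaving out 1 array gave 0 to 2 and 0 to 0, the 2 without 6 h LPS replicate 3. Tolerant against 6 h LPS cells: instead of 0, 2 rose with the block, 1 over replicates 2 and 3, 1 without the filter and 1 with the mean of probe sets, and 0 to 0 with 1 array left out. Instead of 1, the number that fell was 7 with the block, 5 over replicates 2 and 3, 2 without the filter, 4 with the mean of probe sets, 0 with quantile normalization, 2 with trend and robust eBayes, 0 with separate fits, 2 with the probe set whose name has no letter before its ending (an alternative chosen after seeing the data), and 0 to 2 with 1 array left out. Of the 10 called differences, over 20 alternatives, those of Mvk and Insig2 passed in all 20, Acly in 18, Ebp and Sc5d in 17, Pmvk and Nsdhl in 16, Fdps in 12, Scap in 11 and Elovl6 in 8; none changed sign. Of 87 differences 23 were not called and changed sign in at least 1 alternative, none above 0.48 in size. The cause of these changes was not tested.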
